A study of Mus musculus with 22 samples.

Results

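Voltage-gated potassium channel genes encode the pore-forming subunits that open when a neuron is depolarised and let potassium out of the cell. They were read here as a list of 32 genes given by symbol, out of 20129 genes that could be given a symbol on the array. For each gene, the probe identified by a RefSeq accession with the highest median over the arrays was used. All 32 genes had such a probe, and 31 of them were in the tested set. The tissue was the whole brain of 3 mice, all male and of the inbred strain C57BL/6J, each brain cut along 1 plane into slabs that were measured as fractions. Mouse 1 gave 10 coronal fractions, mouse 2 gave 6 horizontal fractions and mouse 3 gave 6 sagittal fractions. Most fractions were 1 slab, but coronal fraction 10 and sagittal fraction 1 pooled 2 slabs and sagittal fraction 6 pooled 3. The labels give slabs of 500 µm and the study's description thicker ones, so positions are slab numbers. Their titles put them at 7 days of age and another field at 3 days, and both are given. With 1 array for every fraction there were no replicates, and plane and mouse cannot be told apart.

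Channels of this family are assembled from several subunits that share a fold. Kv1 channels (Kcna genes) sit along axons, next to the paranodes of myelinated fibres and at terminals. Kv2 channels (Kcnb genes) carry delayed rectifier current at the cell body. Kv3 channels (Kcnc genes) close fast and serve rapid firing, and Kv4 channels (Kcnd genes) carry the transient A-type current of dendrites. Kv7 channels (Kcnq genes) carry the M-current. The ether-a-go-go group (Kcnh genes) holds Kv10, Kv11 and Kv12, of which Kv11 is the Erg type. The Kv5, Kv6, Kv8 and Kv9 genes (Kcnf, Kcng, Kcnv and Kcns) encode silent subunits, which form no channel alone and modify Kv2 channels.

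All levels are log2 of the background-subtracted intensity minus the 75th percentile of the same array, so a value of 0 is that percentile and a difference of 1 is a doubling. They are compared across fractions for 1 probe at a time, and of paralogs the change in their ratio across fractions is read, not which has the higher level. The labels did not say which end fraction 1 came from. The 4 hindbrain Hox genes of the marker lists were highest in coronal fraction 1 and 5 of 5 olfactory bulb markers in coronal fraction 10, while of 4 hypothalamus markers Avp, Oxt and Pomc were highest in horizontal fraction 6 and Hcrt in horizontal fraction 5. Each array had 29605 to 41965 of 55600 probes well above background. On 7 arrays the slope of the E1A spike-in controls lay out of range (0.773 to 0.891, against 0.949 to 1.07 on the other 15). They were coronal fractions 1 and 2, horizontal fractions 1 to 3 and sagittal fractions 1 and 3, so this measure moved with position. A lower level in a fraction can mean fewer cells of a type or less RNA per cell, and these cannot be told apart.

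Of the 32 genes, 27 were well above background in all 22 fractions. Kcna5 was above background in 20 fractions, Kcnh7 in 19, Kcnh1 in 18, Kcng3 in 10 and Kcng4 in 4. Kcng4, the Kv6.4 subunit, was above background in no horizontal fraction and was therefore not tested. In the remaining 31, 17 passed the threshold in at least 1 of 4 tests and 14 in none.

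**Figure D1:**
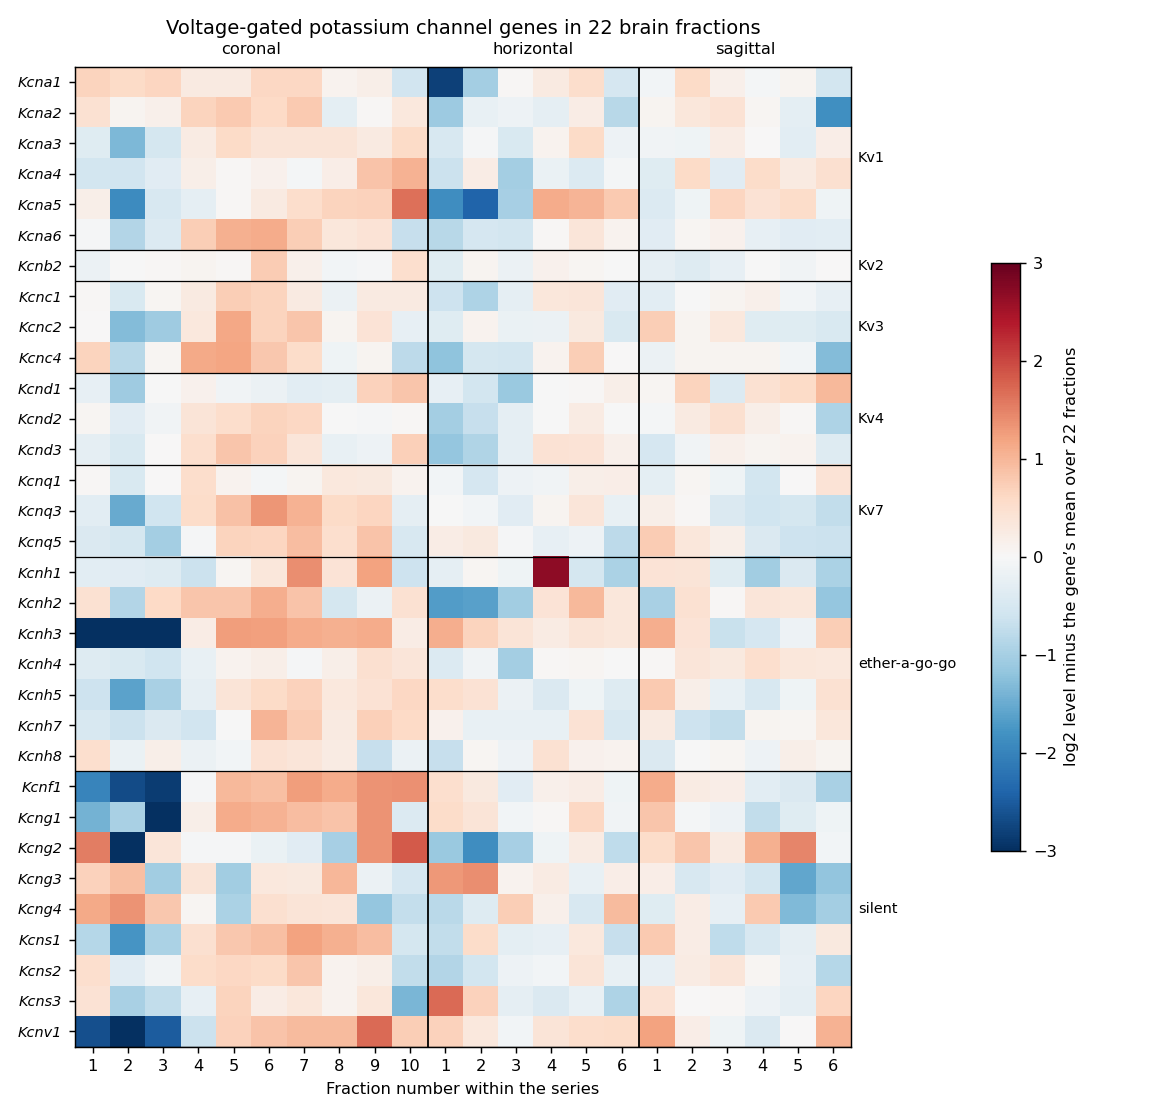
Heat map of the 32 genes (rows, grouped by subfamily) in the 22 fractions (columns, numbered within each series), coloured by the log2 level minus the gene's mean over the 22 fractions, with the colour scale ending at -3 and 3. Kcnh3, Kcnv1 and Kcnf1 are lowest in coronal fractions 1 to 3, and Kcna1 is lowest in horizontal fraction 1.

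Along the coronal fractions, most channel genes that differed with position had a rising linear term, often with an arch. Of the 31 tested, 15 passed (limma, Benjamini-Hochberg adjusted p under 0.05), against 19.8% of all 39621 probes tested. By the sign of the linear term, 14 of the 15 rose and 1 fell, where 12.4% of all probes rose and 7.44% fell. Of the 14, 12 stood higher in fraction 10 than in fraction 1, and Kcna6 and Kcnq5 stood lower. The median fitted change of the 31 genes was 0.96 on the log2 scale, and that of all probes tested was -0.14. Kcnh3, the Kv12.2 channel, Kcnv1, the Kv8.1 silent subunit, and Kcnf1, the Kv5.1 silent subunit, rose most.

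Kcnh3 stood at -0.31, 0.14 and -0.38 in coronal fractions 1 to 3. It then stood at 3.46, 4.49, 4.48, 4.36, 4.32, 4.36 and 3.46 in fractions 4 to 10. The first 3 fractions and the last 7 did not overlap, and their means differed by 4.31, a 19.9-fold difference. The fitted change from the first to the last fraction was 4.92 ± 0.71 (SE; limma adjusted p = 0.000644). Without the arrays of out-of-range slope the change, then from fraction 3 to fraction 10, was 2.51 (limma adjusted p = 0.0377).

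Kcnv1 stood at -2.5, -4.25 and -2.38 in fractions 1 to 3. From fraction 4 to fraction 10 it stood at -0.52, 0.81, 0.99, 1.07, 1.08, 1.83 and 0.86. Fraction 2 was the low point and fraction 9 the high point, with no overlap between the first 3 and the last 7, whose means lay 15.1-fold apart. The fitted change was 5.24 ± 0.68 (limma adjusted p = 0.000647). From fraction 3 to fraction 10, without the arrays of out-of-range slope, it was 2.93 (limma adjusted p = 0.0174).

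Kcnf1 stood at -2.86, -3.56 and -3.73 in fractions 1 to 3. It reached -0.91 in fraction 4 and lay between 0.01 and 0.50 from fraction 5 to fraction 10. The means of fractions 4 to 10 and 1 to 3 were 11.3-fold apart, and the fitted change was 4.55 ± 0.64 (limma adjusted p = 0.00115). A different Kcnf1 probe also rose, by 2.13 (limma adjusted p = 0.0325).

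The other silent subunits that passed were Kcng1 and Kcns1. Kcng1, the Kv6.1 subunit, was lowest at -3.70 in fraction 3, had a median of 0.27 and was highest at 1.1 in fraction 9. Its fitted change was 2.65 ± 0.88 (limma adjusted p = 0.0417), and 1.76 without fraction 3. Kcns1, the Kv9.1 subunit, was lowest at -3.93 in fraction 2, had a median of -1.51 and was highest at -0.94 in fraction 7. It was low at both ends, with -3.0 in fraction 1 and -2.68 in fraction 10, and its fitted change was 1.83 ± 0.53 (limma adjusted p = 0.00822). Of the 8 silent subunit genes tested, 4 passed, all with a rising linear term, though with that term alone Kcng1 and Kcns1 did not pass (limma adjusted p of 0.0974 and 0.154). Kcng2, Kcng3, Kcns2 and Kcns3 did not pass, with adjusted p between 0.0756 and 0.817.

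In the ether-a-go-go group 4 of 7 genes passed and all 4 rose, Kcnh3 included. Kcnh5, the Kv10.2 channel, was lowest at -3.10 in fraction 2, had a median of -1.15 and was highest at -0.81 in fraction 7, a fitted change of 1.93 ± 0.37 (limma adjusted p = 0.00675). Kcnh7, the Erg3 channel, ran from -4.83 in fraction 2 to -3.18 in fraction 6 around a median of -4.07, a change of 1.53 ± 0.41 (limma adjusted p = 0.0367), and was not above background in fraction 2. Kcnh4, the Kv12.3 channel, ran from -1.16 in fraction 3 to -0.08 in fraction 9 around a median of -0.54, a change of 0.99 ± 0.28 (limma adjusted p = 0.0493). Kcnh1, Kcnh2 and Kcnh8 did not pass, with adjusted p of 0.386, 0.562 and 0.515.

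**Figure D2:**
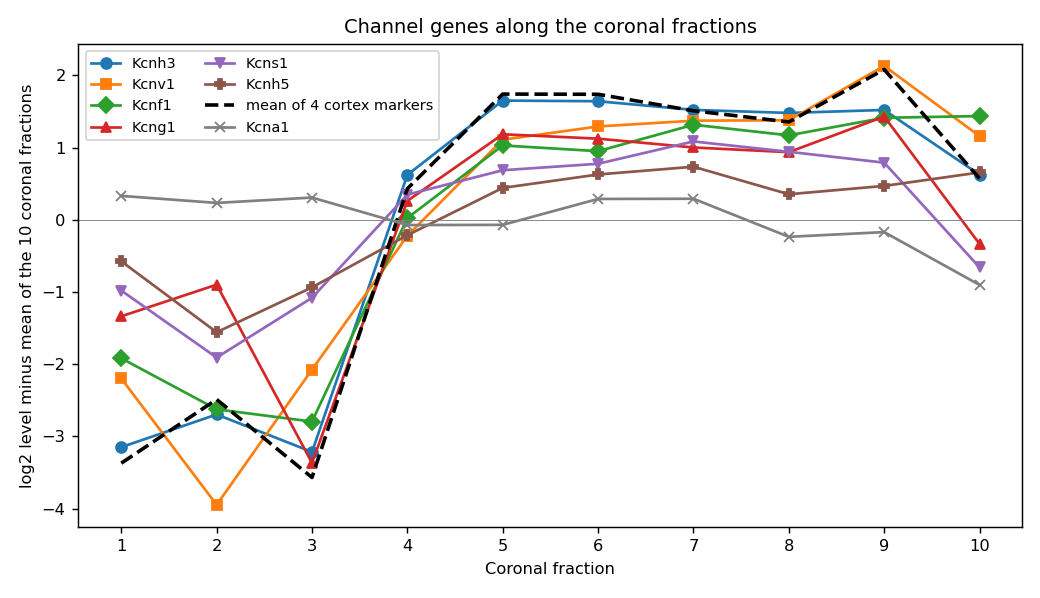
Log2 level minus the mean of the 10 coronal fractions (vertical axis) against coronal fraction (horizontal axis) for 6 channel genes that rose, Kcna1 and the mean of 4 cortex markers (dashed). The 6 genes and the cortex markers lie below their means in fractions 1 to 3, and Kcna1 is lowest in fraction 10.

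The axonal Kv1 genes divided. Of 6 genes 5 passed, 4 upward and Kcna1 downward. Kcna1, the Kv1.1 channel, stood at 1.58, 1.48, 1.56, 1.17, 1.18, 1.54, 1.54, 1.01, 1.08 and 0.35 in coronal fractions 1 to 10. Fraction 10, which pools 2 slabs, was the low one and the other 9 lay within 0.57 of each other, so the fitted fall of -0.88 ± 0.25 (limma adjusted p = 0.0314) leaned on it. Without fraction 10 the fall was -0.41 (limma adjusted p = 0.349), and without fraction 2 or fraction 6 the adjusted p was 0.0539 and 0.0526.

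Kcna4, the A-type Kv1.4 channel, was lowest at 1.34 in fraction 2, had a median of 1.99 and was highest at 2.95 in fraction 10, a change of 1.49 ± 0.39 (limma adjusted p = 0.0347). Kcna3, the Kv1.3 channel, ran from -3.90 in fraction 2 to -1.97 in fraction 10 around a median of -2.22, a change of 1.37 ± 0.39 (limma adjusted p = 0.0373) that was 0.91 without fraction 2. For both, fractions 1 to 3 lay below all of fractions 4 to 10. Kcna5, the Kv1.5 channel, ran from -4.24 in fraction 2 to -0.69 in fraction 10 around a median of -2.13, a change of 2.25 ± 0.62 (limma adjusted p = 0.0431). The second Kcna5 probe did not follow the first (r = -0.346 over 22 arrays) and was not called (limma adjusted p = 0.0712), so the gene's profile is uncertain.

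Kcna6, the Kv1.6 channel, was arched. It was lowest at 2.96 in fraction 2, rose to 4.96 in fraction 6 and stood at 3.15 in fraction 10. Its linear change was 0.32 ± 0.40, so the call (limma adjusted p = 0.0232) came with the curved term, and it counts among the 14 by the sign of that small linear change. A second Kcna6 probe followed the first with r = 0.782 and had an adjusted p of 0.07. Kcna2, the Kv1.2 channel, did not pass along this axis (limma adjusted p = 0.521).

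Among the M-current genes Kcnq3 and Kcnq5 passed and Kcnq1 did not (limma adjusted p = 0.485). Kcnq3 ran from -3.26 in fraction 2 to -0.42 in fraction 6 around a median of -1.18 (limma adjusted p = 0.0159). Kcnq5 ran from -2.38 in fraction 3 to -0.44 in fraction 7 around a median of -1.13 (limma adjusted p = 0.0294). Both were arched, with Kcnq3 at -2.06 in fraction 1 and -2.01 in fraction 10, and Kcnq5 at -1.79 and -1.84. Their linear changes were 1.24 ± 0.46 and 1.04 ± 0.39. A second Kcnq5 probe, above background in 8 fractions, had an adjusted p of 0.0986 by limma. No Kv2, Kv3 or Kv4 gene passed along the coronal fractions. Kcnc1, Kcnc2 and Kcnc4 of the fast-spiking Kv3 type were highest in fraction 5, at 1.53, -0.16 and 2.35, and had adjusted p of 0.355, 0.12 and 0.0892.

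In the tested genes, 10 of 31 had all of coronal fractions 4 to 10 above all of fractions 1 to 3, and 0 had them all below. Over all probes, 8.78% lay above and 6.74% below. The cut after fraction 3 was chosen after the values were seen, so the counts are a description. Several marker lists moved with these genes, the cortex markers among them, and their part in the rise was not tested. The markers Tbr1, Fezf2, Neurod6 and Emx1 were in 4 of 4 cases lowest in fraction 1 or 3 and highest in fraction 5 or 9. Their mean level, each gene centred on its own mean over the 22 fractions, lay between -3.99 and -2.91 in fractions 1 to 3 and between 0.0092 and 1.66 in fractions 4 to 10. Emx1 was not above background in fraction 1, nor was Fezf2 in fraction 3. The means of other lists also lay higher in all of fractions 4 to 10 than in fractions 1 to 3. The striatum mean was at most -1.09 and then at least -0.76, and the olfactory bulb mean at most -1.98 and then at least -1.21. For hypothalamus these were -1.57 and -1.41, and for skeletal muscle, with Ckm above background in 0 fractions, -0.28 and -0.12. The same mean of 4 pan-neuronal markers lay between -0.56 and 0.38 over the 10 fractions, but its members differed. Syt1 lay between 4.26 and 4.84 in fractions 1 to 3 and between 5.61 and 6.65 in fractions 4 to 10. Snap25 stood at 7.72 and 8.55 in fractions 1 and 2 and at 4.85 in fraction 3. It was also high, between 7.07 and 8.15, on the horizontal and sagittal arrays of out-of-range slope. Coronal fraction 8, with its slope in range, stood at 7.11. Markers of the cerebellum moved the opposite way. The mean of 5 granule cell markers stood at 1.14, 2.22 and 2.06 in fractions 1 to 3 and at 0.65 or below in fractions 4 to 10, and that of 3 Purkinje cell markers at 1.33, 1.80 and 1.87, then at 0.43 or below. The part of these lists was not tested either.

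When the 4 array slides were fitted as a block, 3 of the coronal calls held, Kcnh3, Kcnv1 and Kcnf1 (limma adjusted p of 0.0116, 0.00598 and 0.0262). The others had limma adjusted p of 0.0585 to 0.537. Several of their changes stayed near those without the block, such as 2.18 for Kcna5, 2.86 for Kcng1 and -0.88 for Kcna1, while that of Kcna4 was 0.71 and that of Kcna6 -0.25. Slide followed position in part. Coronal fraction 2 was the 1 array of its slide, fractions 9 and 10 shared a slide with the 6 sagittal fractions, the other 7 coronal fractions shared another, and the 6 horizontal fractions filled the last. Of the 15 called genes 9 were lowest in fraction 2, where slide and position cannot be told apart. With the arrays of out-of-range slope left out, 12 genes passed, 9 upward and 3 downward. Of the 15 calls 9 held in their direction, Kcna6 passed with a linear change of -0.60, and Kcna1, Kcna3, Kcna4, Kcnh4 and Kcnh7 did not pass (limma adjusted p of 0.0539 to 0.204). There a change runs from fraction 3 to fraction 10, since fractions 1 and 2 are left out. Those of Kcnh5, Kcnq5, Kcns1 and Kcnq3 were 1.21, 0.59, 0.43 and 0.068. Kcnh3, Kcnv1, Kcnf1, Kcnh5, Kcnq3 and Kcns1 also held when any 1 coronal fraction was left out, with fitted changes of 0.59 to 1.88 for Kcnq3 and 1.20 to 2.72 for Kcns1. The other 9 did not. Kcna3 was lost without fraction 2, 3, 6, 7 or 10 (limma adjusted p up to 0.125) and Kcna6 without fraction 5, 6 or 10 (up to 0.0633), while without fraction 2 Kcna6 passed with a linear change of -0.19. Kcnq5 was lost without fraction 2, 5, 6 or 7 (up to 0.0699), its change reaching 1.70 without fraction 10, and Kcnh7 without fraction 2, 3, 5, 7, 9 or 10 (up to 0.0962). Kcna4 was lost in 7 of 10 omissions (up to 0.105), Kcng1 in 7 (up to 0.0789), Kcna5 in 8 (up to 0.136) and Kcnh4 in 9 (up to 0.111), all by limma. With the linear term alone, Kcna1, Kcna6, Kcnq3, Kcnq5, Kcng1 and Kcns1 were lost (limma adjusted p of 0.0974 to 0.725). With the spike-in probe a107 as a covariate, Kcna1, Kcna3, Kcna6, Kcng1, Kcnh4, Kcnh7, Kcnq3 and Kcnq5 did not pass (limma adjusted p of 0.0516 to 0.124). With each series fitted alone, Kcnh3 and Kcnv1 passed (limma adjusted p of 0.0394 and 0.0402).

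The promoters of 3 genes called with a rising linear coronal term are printed to show what lies at their starts. The table held promoters for 22 of the 32 genes, from RefSeq on GRCm38.p6, each 250 bases before to 50 after a start. It held none for Kcnh3 or Kcnv1. Kcnf1 lies at chr12:17176839-17177138, Kcns1 at chr2:164171064-164171363 and Kcnh5 at chr12:75177283-75177582, all on the minus strand. Capitals mark the motifs searched on both strands, the GC box GGGCGG, the E-box CANNTG, the T-box half-site TCACACC and the TATA box TATAAA.
Kcnf1: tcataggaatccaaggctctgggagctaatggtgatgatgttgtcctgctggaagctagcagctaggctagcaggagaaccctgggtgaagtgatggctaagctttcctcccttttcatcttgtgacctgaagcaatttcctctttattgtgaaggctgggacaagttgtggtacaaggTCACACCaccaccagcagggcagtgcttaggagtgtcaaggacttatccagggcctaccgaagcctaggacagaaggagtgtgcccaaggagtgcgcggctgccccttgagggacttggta
Kcns1: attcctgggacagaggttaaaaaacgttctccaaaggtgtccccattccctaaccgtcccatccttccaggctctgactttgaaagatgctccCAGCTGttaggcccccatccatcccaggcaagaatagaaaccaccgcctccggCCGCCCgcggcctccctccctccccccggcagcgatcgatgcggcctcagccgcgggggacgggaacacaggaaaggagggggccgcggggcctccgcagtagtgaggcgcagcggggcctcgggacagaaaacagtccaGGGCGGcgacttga
Kcnh5: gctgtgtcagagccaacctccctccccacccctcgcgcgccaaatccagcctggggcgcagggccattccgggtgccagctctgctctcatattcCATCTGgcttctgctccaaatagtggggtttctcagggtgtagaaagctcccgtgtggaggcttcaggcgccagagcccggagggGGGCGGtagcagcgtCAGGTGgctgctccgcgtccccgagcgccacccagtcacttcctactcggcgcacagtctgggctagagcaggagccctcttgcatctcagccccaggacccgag
The Kcnf1 promoter held 1 T-box half-site and none of the other 3 motifs, the Kcns1 promoter 2 GC boxes and 1 E-box, and the Kcnh5 promoter 1 GC box and 2 E-boxes. Of 32851 mouse promoters of this length, 35.7% held the GC box, 72.3% the E-box, 3.98% the half-site and 13.6% the TATA box. Of the 22 listed genes, counted with all their promoters, 16 held the GC box, 14 the E-box, 3 the half-site and 0 the TATA box. The bases were 53.0% G or C in Kcnf1, 64.0% in Kcns1 and 65.3% in Kcnh5. The median was 52.7% over all promoters and 65.3% over 27 promoters of the listed genes. A match is a run of letters and not a site shown to be bound.

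From horizontal fraction 1 to fraction 6, 3 genes passed, Kcna1, Kcna5 and Kcnd2, and all rose. That is 3 of 31, against 6.58% of all probes, with 3.96% of all probes rising, so the share of channel genes was near the background. The median fitted change was 0.37 for the 31 genes and -0.19 for all probes tested.

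Kcna1 stood at -1.89, -0.12, 0.95, 1.17, 1.43 and 0.42 in horizontal fractions 1 to 6. The lowest fraction was the first and the highest the fifth, and the fitted change was 2.35 ± 0.29 (limma adjusted p = 0.000827). Without fraction 1 it was 0.62 (limma adjusted p = 0.071). Several marker lists moved the same way. The mean centred level of 5 oligodendrocyte markers, all above background in all 22 fractions, was -2.01 in fraction 1 and 1.65 in fraction 5. Mag, Mobp, Cnp and Mog were higher in fraction 5 than in fraction 1, while Mbp stood at 2.59 and 2.55. Between the same fractions the mean of 4 astrocyte markers ran from -0.68 to 0.38, that of 4 thalamus markers from -1.75 to 0.38 and that of 3 hippocampus markers from -1.31 to 0.42. Other lists also rose, such as caudal hindbrain from -2.76 to 2.91, hypothalamus from -0.52 to 2.13 and olfactory bulb from -0.76 to 1.43. Striatum ran from -1.10 to 0.84 and choroid plexus from -1.07 to 0.86. Cortex fell from 1.28 to -0.14 and the pan-neuronal mean from 0.52 to -0.09. The part of these lists in the change of Kcna1 was not tested.

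Kcna5 stood at -4.22, -4.76, -3.34, -1.25, -1.33 and -1.55, and was not well above background in fractions 1 and 2. The last 3 fractions lay above the first 3, with a fitted change of 3.68 ± 0.73 (limma adjusted p = 0.0272). Its second probe changed by -1.40 in the other direction (limma adjusted p = 0.2). Without fraction 1, 2 or 5 the adjusted p of the first probe was 0.0688, 0.0675 and 0.0808.

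Kcnd2, the Kv4.2 channel, stood at 1.79, 2.11, 2.55, 2.80, 3.04 and 2.80, a change of 1.15 ± 0.29 (limma adjusted p = 0.0443) that was 0.75 without fraction 1. The span was narrow, and the call was lost without any 1 of the 6 fractions (limma adjusted p of 0.0651 to 0.132). It was also lost under array median centring, quantile normalization, normexp and no filter on dim probes (limma adjusted p of 0.0514 to 0.0651). Kcnd3, Kcnh2 and Kcns3 had adjusted p of 0.052, 0.0546 and 0.0558. Kcns3, the Kv9.3 subunit, stood at 0.08 in fraction 1 and at -2.55 in fraction 6, while Kcnh2, the Erg1 channel, stood at -2.82 in fraction 1 and -0.18 in fraction 5.

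Horizontal fractions 1 to 3 were the arrays whose spike-in slope lay out of range. With the level of the spike-in probe a107 as a covariate, Kcna1 was the 1 horizontal call that held (limma adjusted p = 0.0117). With those arrays left out, 3 horizontal fractions remained and 0 genes passed by limma, with 2 of 31 at an unadjusted p under 0.05, against 5.8% of all probes. There the fitted changes were -0.76 for Kcna1, -0.31 for Kcna5 and -0.00266 for Kcnd2. They run from the first to the last of the 3 fractions kept, which the fitted curve meets exactly. Fractions 1 to 3 are left out, so these values cannot show whether the change over the whole series holds or reverses.

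**Figure D3:**
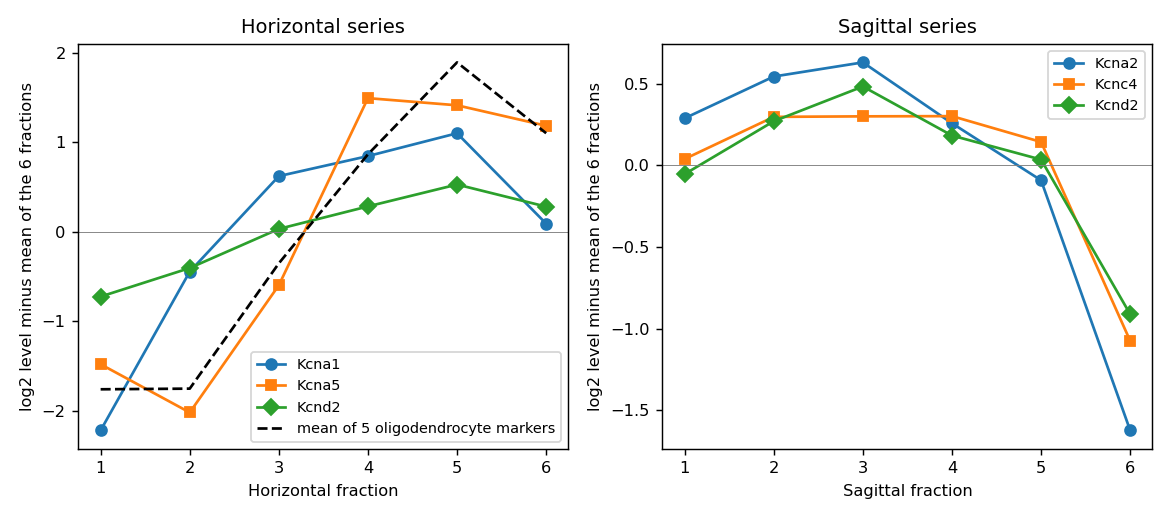
Log2 level minus the mean of the 6 fractions (vertical axes) against fraction. Left, Kcna1, Kcna5, Kcnd2 and the mean of 5 oligodendrocyte markers (dashed) are lower in horizontal fractions 1 and 2 than in fractions 4 to 6. Right, Kcna2, Kcnc4 and Kcnd2 are lowest in sagittal fraction 6.

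In the sagittal series 1 gene passed the linear test, Kcna2, which fell. That is 1 of 31, against 10.2% of all probes, of which 2.43% fell. Kcna2 stood at -1.41, -1.15, -1.07, -1.44, -1.79 and -3.32 in sagittal fractions 1 to 6. Fraction 6 was the low one, and the fitted change was -1.91 ± 0.41 (limma adjusted p = 0.00915). Fraction 6 pools 3 slabs. Without it the change was -0.38 (limma adjusted p = 0.725). The second Kcna6 probe, which was not the one used, fell by 1.74 in this test (limma adjusted p = 0.0383). The oligodendrocyte markers were low at both ends of this series, at -1.90 in fraction 1 and -0.75 in fraction 6, and between 0.72 and 1.01 in the fractions between. In fraction 6 the mean of 3 hippocampus markers was at its sagittal low of -0.96, that of 4 thalamus markers stood at -0.93, and that of 4 bone and meninges markers was at its sagittal high of 2.11. The part of these lists was not tested.

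In the quadratic test, which sets the ends of the sagittal series against its middle, 0 genes passed by limma, against 0.0303% of all probes, and 7 of 31 had an unadjusted p under 0.05, against 14.8% of all probes. Over all probes tested, 12 passed it. Kcnh3 showed no sagittal call, with 4.32 in fraction 1, 2.58 in fraction 3 and 3.99 in fraction 6.

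**Figure D4:**
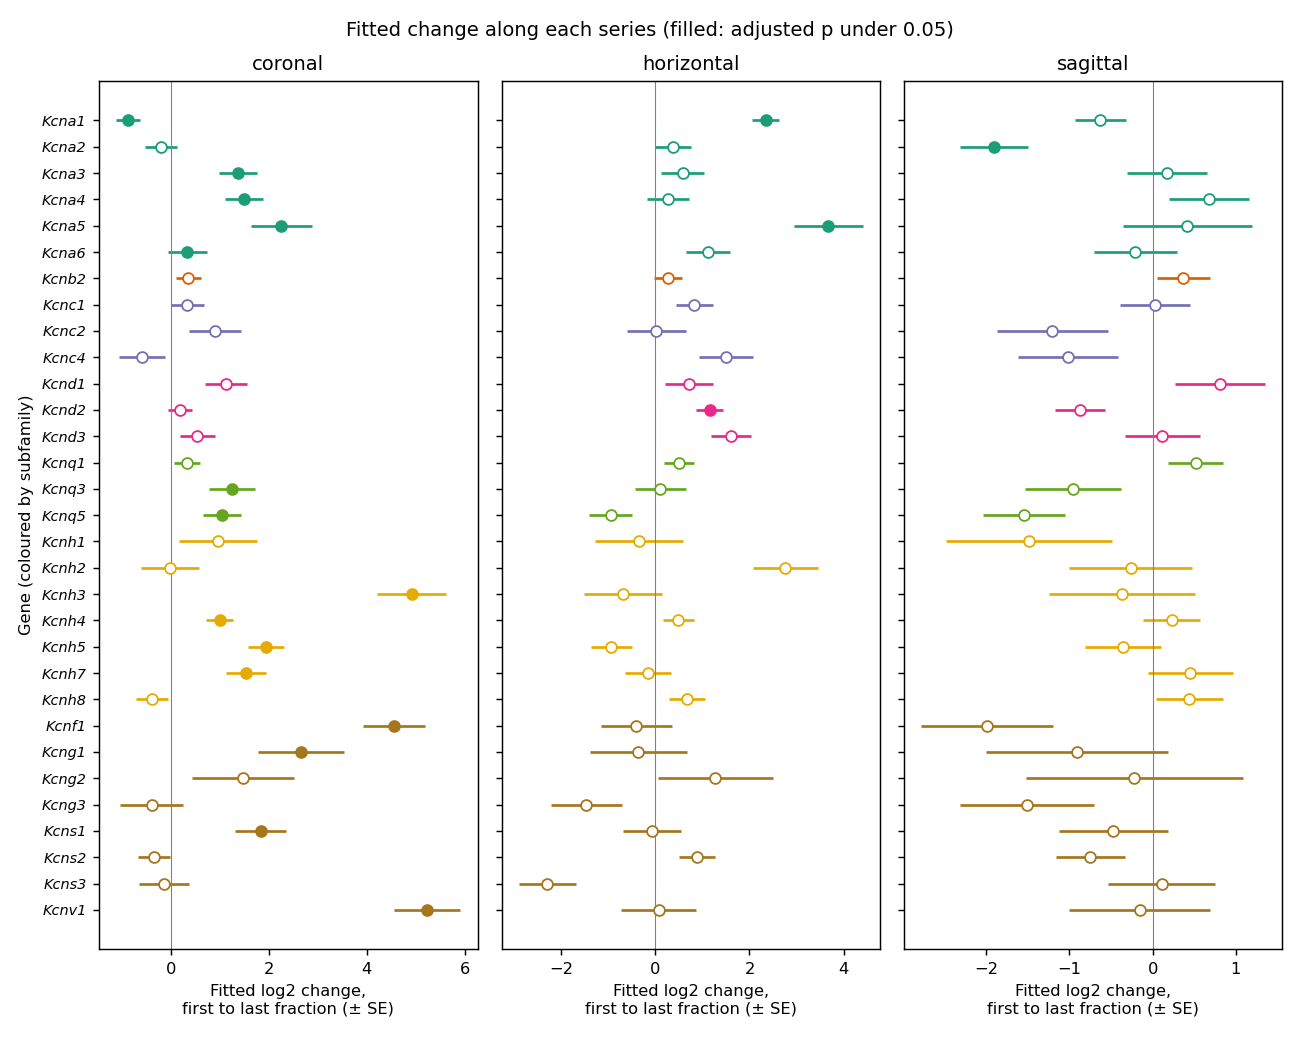
Fitted log2 change from the first to the last fraction (horizontal axes, bars are SE) for the 31 tested genes in each series, coloured by subfamily and filled where the adjusted p was under 0.05. The coronal panel holds 15 filled points, 14 of them right of 0, the horizontal panel 3 and the sagittal panel 1.

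The genes that passed no test were read by their range. Kcnb2, the Kv2.2 channel, stayed between -1.75 and -0.60 over all 22 fractions. Kcnq1 stayed between -2.81 and -1.74 and Kcnh8, the Kv12.1 channel, between -3.10 and -1.91. Kcnd1, the Kv4.1 channel, ran from -0.50 to 1.57, and Kcnd3, the Kv4.3 channel, from 1.48 to 3.46. Kcng2 ran from -3.73 in coronal fraction 2 to 1.1 in coronal fraction 10, and its second probe did not track it (r = 0.17). Kcnc1 had 3 probes, and the others followed the one used with r of 0.713 and 0.691. Of those, one rose along the horizontal fractions by 1.63 (limma adjusted p = 0.0421).

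Paralogs were set against each other within an array, where the scaling cancels. For 13 pairs in 3 series, the log2 ratio of the genes was correlated with slab position, and two-sided permutation p-values were adjusted over all 39 tests. Of these, 7 passed. The fractions of a series come from 1 mouse and neighbours share tissue, so the p-values treat fractions as exchangeable and say nothing of other mice, and several pairs share a gene.

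Among the Kv1 genes, Kcna1 fell relative to Kcna4 along the coronal fractions (r = -0.88, a change of -2.37 in the log2 ratio, permutation adjusted p = 0.017). Kcna2 fell relative to Kcna3 (r = -0.85, change -1.58, permutation adjusted p = 0.017). Kcna1 against Kcna2, which can share a channel, changed by -0.67 and did not pass (permutation adjusted p = 0.273).

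Among the silent subunits Kcns1 rose relative to Kcns2 along the coronal fractions (r = 0.854, change 2.19, permutation adjusted p = 0.017). Kcnh3 rose relative to Kcnh8 (r = 0.782, change 5.32, permutation adjusted p = 0.0474), while Kcnh3 against Kcnh4 changed by 3.93 and did not pass (permutation adjusted p = 0.0986). The Kcnh3 over Kcnh8 ratio made a step after fraction 3 rather than a line.

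In the horizontal series Kcnh2 rose relative to Kcnh7, both of the Erg type (r = 0.953, change 2.92, exact permutation adjusted p = 0.0361). Kcnh7 was not above background in fraction 6, where the ratio was highest, so the size of that change is uncertain. The ratio was lowest, at 1.25, in fraction 1, and fractions 1 to 3 are arrays of out-of-range slope. The part of the slope was not tested. In the sagittal series Kcnd2 fell relative to Kcnd3 (r = -0.961, change -0.99, exact permutation adjusted p = 0.017). Kcnc1 rose relative to Kcnc4 (r = 0.819, change 1.05, exact permutation adjusted p = 0.0325). That rise leaned on fraction 6, which pools 3 slabs and where Kcnc4 had its sagittal low. The log2 ratio was 0.69 there, against a lowest value of -0.51 and a median of -0.36. The calls of Kcna1 against Kcna4, Kcna2 against Kcna3 and Kcns1 against Kcns2 held under the 3 alternatives that changed their values, since these genes have no next probe, and without any 1 coronal fraction (largest permutation adjusted p of 0.0387, 0.0406 and 0.0479). Kcnh3 against Kcnh8, Kcnc1 against Kcnc4 and Kcnd2 against Kcnd3 were lost when next probes were used. Kcnh3 against Kcnh8, Kcnc1 against Kcnc4 and Kcnh2 against Kcnh7, the last without a next probe, were lost with Spearman's rho and with normexp background correction. Kcnh3 against Kcnh8 was lost without any 1 of 8 coronal fractions (largest exact permutation adjusted p = 0.143). For the pairs called in 6 fractions, 5 fractions allow an exact permutation p no smaller than 0.00833, or 0.0167 without horizontal fraction 1 or 6, so losing the call there says little about stability.

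**Figure D5:**
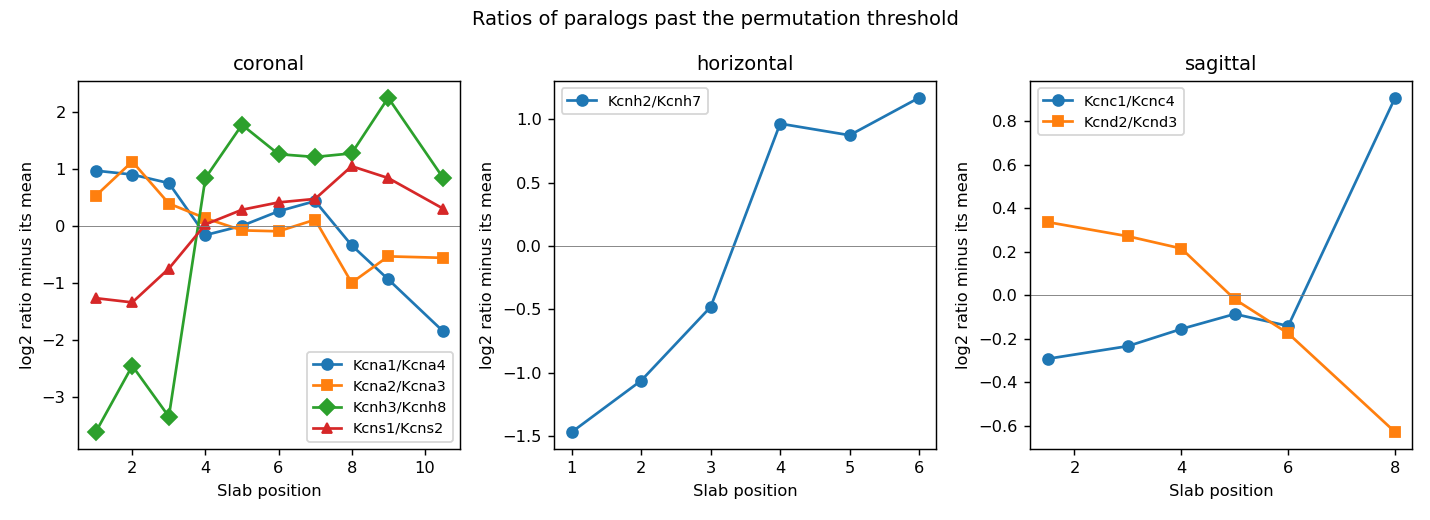
Log2 ratio of paralogs on the same array minus its mean (vertical axes) against slab position (horizontal axes) for the 7 pairs past the permutation threshold, 4 coronal, 1 horizontal and 2 sagittal. Kcna1 over Kcna4 and Kcna2 over Kcna3 fall, and Kcns1 over Kcns2 and Kcnh3 over Kcnh8 rise.

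Over the 22 arrays, the median r was 0.391 over 35 pairs of genes of the same Kv number and 0.287 over 430 pairs of different Kv number. Grouped by the subfamilies used above, with the silent genes and the ether-a-go-go genes each as 1 group, it was 0.26 over 73 pairs within and 0.295 over 392 pairs between, so the order depends on the grouping. The highest were Kcnh3 with Kcnv1 at 0.927 and Kcnc4 with Kcns2 at 0.915. These share arrays and scaling and are given without a test.

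Over the 22 arrays and 16691 other genes, the genes most like Kcnh3 were Tbr1 (r = 0.964), Emx1 (0.963) and Ddn (0.963). Those most like Kcnv1 were Gda (0.979), Mctp1 (0.969) and Dbpht2 (0.965), and those most like Kcnf1 were Ptk2b (0.967), Camk2b (0.96) and Egr4 (0.953). Tbr1 and Emx1 are transcription factors of cortical projection neurons and their progenitors. Kcng1 was most like Chrm1 (0.969), Gpr12 (0.948) and Fezf2 (0.935), Kcns1 most like Rorb (0.93), Pcnx2 (0.921) and Plcxd2 (0.916), and Kcna5 most like Bmpr1b (0.905), Arc (0.886) and Syt6 (0.885).

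Genes whose products work with these channels were read from lists. Of 13 auxiliary subunit genes tested, 2 passed along the coronal fractions, against 19.8% of all probes. Kcnip2, a KChIP that binds Kv4 channels, ran from -3.24 in fraction 2 to 0.31 in fraction 8 (limma adjusted p = 0.0095), and changed by 3.02 ± 0.59. Kcnab1, a Kv1 beta subunit, was arched, highest at 2.13 in fraction 7 and lowest at 0.42 in fraction 10, with a linear change of 0.44 ± 0.32 (limma adjusted p = 0.0159). The median change of the 13 was 0.12, and 0 passed in the other 2 series.

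Of 32 other potassium channel genes 15 passed along the coronal fractions, 11 with a rising linear term, against 19.8% and 12.4% of all probes. Along the horizontal fractions 3 passed, against 6.58%, and in the sagittal linear test 2, against 10.2%. Kcnj4, an inward rectifier, ran from -1.66 in fraction 2 to 4.20 in fraction 10, a change of 6.47 ± 0.66 (limma adjusted p = 0.000156). Kcnma1, the large-conductance calcium-activated channel, and Kcnk10, a tandem-pore channel, were highest in fraction 6, at 3.02 and 3.14. Kcnk1, also of the tandem-pore family, fell by 1.20 on the log2 scale (limma adjusted p = 0.00924).

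Of 15 partners of the juxtaparanode and the axon initial segment, 11 passed along the coronal fractions, 9 with a rising linear term, against 19.8% and 12.4% of all probes. Lgi3 fell by 3.31 (limma adjusted p = 0.000647) and Cntnap1, the paranodal Caspr, fell by 1.80 (limma adjusted p = 0.00288), in the direction of Kcna1. The oligodendrocyte marker mean also fell, from 2.07 in coronal fraction 1 to -1.25 in fraction 10, and its part was not tested. Lgi1 rose by 1.73 (limma adjusted p = 0.0104) and Sptbn4, the spectrin of nodes and initial segments, by 0.68 (limma adjusted p = 0.0168). Along the horizontal fractions Lgi3 and Nfasc passed and rose by 2.71 and 2.13 (limma adjusted p of 0.0172 and 0.0356), and in the sagittal linear test Ank3, the ankyrin of the initial segment, fell by 1.68 (limma adjusted p = 0.0116).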

How the data were processed

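Total RNA of 22 brain fractions was labelled with Cy3 and hybridised to 1-colour Agilent mouse arrays designed on mm9. Per the file headers, the authors extracted the spots with Feature Extraction 10.10.1.1, and the deposited intensity values are background-subtracted signals. A log2 table deposited beside these files gave 1 column per array; 47478 of its 47544 rows matched a probe, and all matched values lay within 0.02 of the scaling used here. No column of those tables was left unassigned.

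Spots flagged as outliers were dropped, log2 intensities averaged per probe, and each array's 75th percentile subtracted. Probes were named through RefSeq accessions. A probe was tested if well above background in at least 1 fraction of each series. limma 3.58.1 (R 4.3.3) fitted, over the 22 arrays, an intercept, a linear and a quadratic position term per series. Coronal and horizontal position were tested on both terms together, with direction from the linear term, and the 2 sagittal terms singly, with Benjamini-Hochberg adjustment over 39621 probes. A fitted change runs from the first to the last fraction kept in the fit. Since fractions are not replicates, errors measure the scatter around these curves, in part biological. Paralog ratios used Pearson's r with permutations, all orders for fewer than 10 fractions and 100000 resamples for 10. Fits were tested on simulated data. The normexp alternative (offset 50) used the median signal, since no mean signal column was read.

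Every member of the list is accounted for. Other lists name up to 4 genes with the smallest coronal p past the threshold, and likeness is given for the 6 members with the widest fitted coronal range among those past the threshold, as the 3 genes with the highest r. The members and lists were chosen with earlier results of these data known. Some marker genes of the lists are not reported here, and list means leave them out.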

Additional observations from a re-analysis of the deposited data

Results flagged for a closer look

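For each channel gene and series, the end values were set against the rest. In 4 of 96 such groups the lowest or highest fraction stood apart from its nearest neighbour in value by more than Dixon's 95% limit allows, and chance flags about 1 in 20. Kcna1 stood at 0.35 in coronal fraction 10, below the next lowest 1.01. Kcna2 stood at -3.32 in sagittal fraction 6, below -1.79, and Kcnc4 at -0.13 in the same fraction, below 0.98. Kcnh1, the Kv10.1 channel, stood at -1.08 in horizontal fraction 4, above -3.73. Coronal fraction 10 pools 2 slabs and sagittal fraction 6 pools 3.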

How the results depend on the processing

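Along the coronal fractions the count of 15 became 12 under array median centring, where Kcna1, Kcna5 and Kcnh4 did not pass. It was 13 under quantile normalization, without Kcna4 and Kcna5, and 14 under normexp, without Kcnh7. With no filter on dim probes it was 10, without Kcna3, Kcna5, Kcng1, Kcnh4 and Kcnh7. It was 8 with the spike-in probe as covariate, 3 with slide as block, 9 with the linear term alone and 2 with each series alone. It was 7 to 19 when a coronal fraction was left out. Genes counted under an alternative need not be among the 15. Kcnh3 and Kcnv1 passed and rose under the 11 alternatives that could change their values (neither has a next probe) and all 22 omissions. Without the arrays of out-of-range slope their changes, from fraction 3 to fraction 10, were 2.51 and 2.93. The 3 horizontal calls became 5 among probes detected on all arrays, 1 with the spike-in covariate, 0 without arrays of out-of-range slope, 6 with slide as block, 1 with the linear term alone and 0 with each series alone, and 0 to 2 without a horizontal fraction. Chosen after seeing the data, omissions in the other series gave 11 to 15 coronal, 2 to 7 horizontal and 1 to 4 sagittal linear calls. The 1 sagittal linear call became 0 under median centring, 2 under normexp, 3 among probes detected on all arrays, 0 with the linear term alone, 0 with each series alone and 2 with the next probe, and 0 to 2 without a sagittal fraction. The quadratic count was 0 under all of them. Paralog ratios fell from 7 to 4 with Spearman's rho, 4 with normexp and 3 with the next probe, and ranged from 3 to 8 without a fraction; with 5 of 6 fractions the smallest exact p before adjustment is 0.00833, or 0.0167 without horizontal fraction 1 or 6. The sign turned for Kcna6 coronal (-0.60 from fraction 3 to fraction 10 without out-of-range arrays, -0.25 with slide as block, and -0.19 to 1.08 over omitted coronal fractions). In the horizontal series it turned with the next probe for Kcna5 (-1.40). Without out-of-range arrays the horizontal changes were -0.76 for Kcna1, -0.31 for Kcna5 and -0.00266 for Kcnd2. These span only the 3 fractions kept and leave out fractions 1 to 3, so they cannot show whether the change over the whole series reverses. For counts under fewer arrays or terms the construction differs, and for the rest the cause was not tested. No paired analysis was possible because fraction numbers are positions along different axes of different mice. Signal over background limits Kcng4, Kcng3, Kcnh1, Kcnh7 and the horizontal Kcna5 values.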
